A study of Mus musculus with 6 samples.

Results

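Transporter genes of the SLC7, SLC3 and SLC43 families were followed in mouse leukaemia cells after withdrawal of an activated FLT3 receptor. The 8 members were taken by symbol: Slc7a5, Slc3a2, Slc7a1, Slc7a6, Slc7a7, Slc7a8, Slc43a1 and Slc43a2. Each of the 8 had 1 row among 53733 named rows of the count table. In both groups the cells were an acute myeloid leukaemia line made from murine foetal liver, with the fusion oncogene MLL-AF9 expressed constitutively together with luciferase (MSCV-Luc2-IRES-MLL-AF9). An inducible vector (TRE-tight-DsRED-IRES-FLT3-ITD) added FLT3-ITD and a DsRED reporter, both dependent on doxycycline. NSG mice, which are immunodeficient but keep their own erythroid and myeloid cells, received the cells by vein and doxycycline for 96 h. The OFF group (3 mice) then had regular food and water for 48 h, and the ON group (3 mice) stayed on doxycycline over the same 48 h, so that loss of the transgene and loss of the drug cannot be told apart. From the marrow of each mouse, living leukaemia cells were sorted and 1 library was sequenced from mRNA 3' ends. The sources used here give neither mouse age nor the markers of the sort, and all animals carried 1 line, so p-values measure the spread between mice of that line.

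Cells take up amino acids through membrane carriers that work alone or as pairs. Slc3a2 encodes the heavy chain 4F2hc (CD98), a glycoprotein that carries no substrate itself but brings a light chain to the plasma membrane through a disulphide bond. Its light chains include LAT1 (Slc7a5), which exchanges leucine and other large neutral amino acids, LAT2 (Slc7a8), which also takes small neutral ones, and y+LAT1 (Slc7a7) and y+LAT2 (Slc7a6), which exchange cationic for neutral amino acids. CAT1 (Slc7a1) brings in arginine and lysine with no heavy chain, and LAT3 (Slc43a1) and LAT4 (Slc43a2) let branched-chain and aromatic amino acids pass without exchange. In blood cells LAT1 and CD98 are best known for their rise when lymphocytes are activated, and leucine and arginine brought in this way are inputs of mTORC1, a kinase complex that controls growth.

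Promoter stretches are shown for 1 gene that fell (Slc3a2), 1 that rose (Slc7a8), 1 that did not pass the test (Slc7a7), and for the cystine carrier Slc7a11, a further partner of Slc3a2 that fell. Each is the 250 bases before the RefSeq start site, 5′ to 3′ on the strand of the gene (GRCm38.p6). Capitals mark matches to any of the motifs TGATGNAA (the core bound by ATF4 with C/EBP partners), CACGTG (E-box), TTCNNNGAA (STAT) or GTAAACA (forkhead), searched on both strands.
Slc3a2, chr19:8713898-8714147, minus strand: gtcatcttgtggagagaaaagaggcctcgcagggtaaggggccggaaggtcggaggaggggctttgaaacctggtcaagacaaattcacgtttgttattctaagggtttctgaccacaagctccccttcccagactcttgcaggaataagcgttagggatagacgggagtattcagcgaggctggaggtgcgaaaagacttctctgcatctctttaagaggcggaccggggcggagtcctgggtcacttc
Slc7a8, chr14:54781887-54782136, minus strand: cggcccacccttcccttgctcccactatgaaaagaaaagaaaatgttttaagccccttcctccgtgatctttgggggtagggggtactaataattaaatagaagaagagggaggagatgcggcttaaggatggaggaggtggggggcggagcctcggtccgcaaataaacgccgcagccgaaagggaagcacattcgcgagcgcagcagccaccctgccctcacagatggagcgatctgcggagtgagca
Slc7a7, chr14:54417945-54418194, minus strand: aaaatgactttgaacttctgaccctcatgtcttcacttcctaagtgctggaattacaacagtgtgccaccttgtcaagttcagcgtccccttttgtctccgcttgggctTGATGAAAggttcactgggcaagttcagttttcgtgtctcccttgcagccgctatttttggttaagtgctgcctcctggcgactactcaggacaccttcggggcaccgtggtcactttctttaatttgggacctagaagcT
Slc7a11, chr3:50443614-50443863, minus strand: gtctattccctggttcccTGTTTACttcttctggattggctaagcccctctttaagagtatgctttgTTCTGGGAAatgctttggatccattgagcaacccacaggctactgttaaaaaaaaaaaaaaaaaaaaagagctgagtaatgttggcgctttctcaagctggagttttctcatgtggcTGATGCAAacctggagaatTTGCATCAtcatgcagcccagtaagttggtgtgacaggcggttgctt
The Slc7a11 stretch held the ATF4 core on both strands, 66 and 47 bases before the start, beside a STAT and a forkhead match. Of all 32851 promoter windows, 3.97% held the ATF4 core, 8.3% the STAT and 3.65% the forkhead motif. Of genes outside the members only Slc7a11 was searched, and Slc7a2, which was also called lower, was not. The Slc7a7 stretch held the ATF4 core 141 bases before the start, and a second match began 1 base before the start and ran past it. The printed Slc3a2 and Slc7a8 stretches held none of the 4 motifs. The Slc3a2 stretch lies inside the gene as GENCODE draws it (8706882 to 8723369, minus strand). The bases before that gene model's start at 8723369 were not searched.

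The libraries held 8347588 to 9329917 counts, and an undetected gene could have stood at up to 0.37 CPM (3 counts, counting error only; CPM is the usual library-scaled count, here with TMM factors). Rows of the ribosomal RNA locus took 10.1% to 18.0% of counts in OFF and 11.3% to 16.2% in ON. On a second principal component (13.6% of the variance of log2 CPM), OFF replicate 3 stood apart from OFF replicates 1 and 2. The mouse Flt3 row averaged 6.83 ± 2.01 CPM in OFF and 5.67 ± 0.17 CPM in ON (SD, n = 3 each, adjusted p = 0.387). It counts the endogenous gene, so it is no check on transgene loss. The summed level of 11 leukaemia and progenitor markers was 3360 to 3627 CPM in OFF and 1917 to 2188 CPM in ON. Of 10 tested, 5 were called higher and 0 lower, against 17.3% higher and 17.5% lower over all tested rows. Most of the gap in this sum lay in Elane, which averaged 1626 CPM in OFF and 840 CPM in ON, and Mpo, with 803 CPM in OFF and 301 CPM in ON. Hoxa9 averaged 350.1 CPM in OFF and 331 CPM in ON and was not called, nor were Hoxa10, Spi1, Cebpa and Cd34. Kit was 0 to 0.55 CPM in OFF and 0.11 to 0.57 CPM in ON. Markers of other marrow cells moved too: the summed level of 8 measured erythroid genes was 578 to 934 CPM in OFF and 150 to 212 CPM in ON. That of 10 neutrophil genes was 16007 to 25169.5 CPM in OFF and 19647 to 21140 CPM in ON, with 7 of the 10 called higher. That of 12 macrophage genes was 59.5 to 85.7 CPM in OFF and 59.5 to 68.1 CPM in ON, with Cd5l and Spic at 0. Single macrophage genes moved in opposite directions: of 4 tested, 3 were called higher and 1 lower. Adgre1 averaged 16.2 CPM in OFF and 4.06 CPM in ON, and Csf1r 31.9 and 17.3 CPM, whereas Vcam1 averaged 19.9 and 39.8 CPM. Mrc1 was the third called higher, but that call ended by DESeq2 and without OFF replicate 2, ON replicate 1 or ON replicate 3. B cell, T cell, dendritic cell, eosinophil or mast cell, and stromal lists each summed to at most 12.2 CPM, and 6 megakaryocyte genes to 54.9 to 63.8 CPM in OFF and 32.3 to 37.1 CPM in ON. In sorted bulk cells, fewer cells of a type and less RNA per cell cannot be told apart.

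Across the family, the LAT1 chain, its heavy chain, y+LAT2 and the arginine carrier CAT1 were lower after FLT3-ITD withdrawal, whereas LAT2 and LAT4 were higher. Of the 8 members, 7 passed the filter on low counts. Of these, 4 were called lower and 2 higher at an adjusted p of 0.05, and 1 was not called. Over all 13652 tested rows the background was 17.5% lower and 17.3% higher, or 34.8% in either direction. The 7 tested members had a median log2 fold change of -1.18, against 0.00 over all tested rows, where the middle part of the distribution ran from -0.31 to 0.36. For 6 of the 7, the OFF range and the ON range were apart, against 48.3% of all tested rows. Since reads come from 3' ends, CPM were not divided by gene length. Where counts or CPM of different genes are set against each other, differences in 3' priming between the genes enter.

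**Figure D1:**
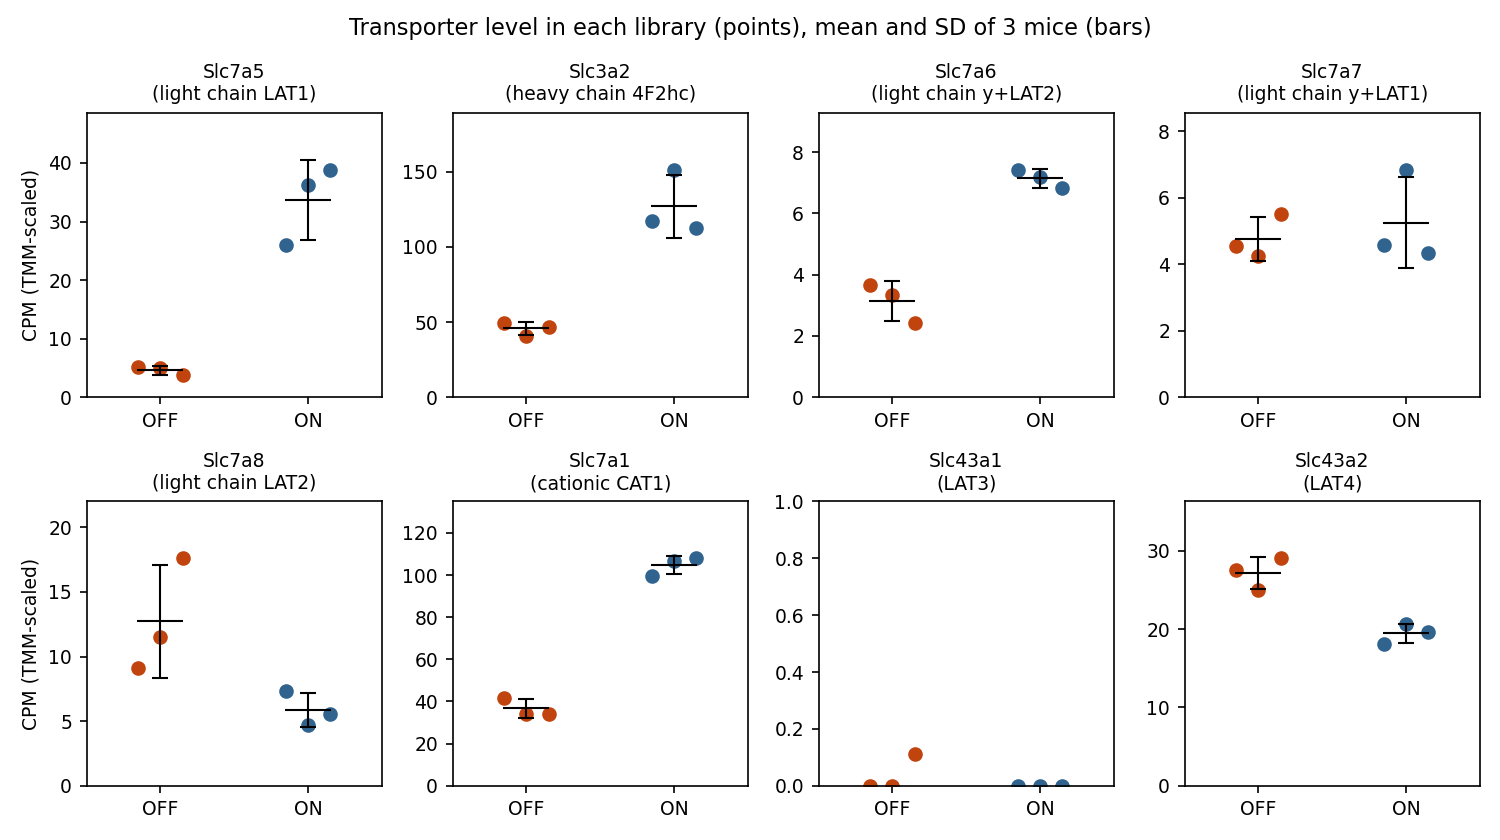
TMM-scaled CPM (vertical axis, from 0) of the 8 members in each of 3 OFF and 3 ON libraries (points), with the mean and SD as bars except for Slc43a1. Every OFF point lies below every ON point for Slc7a5, Slc3a2, Slc7a6 and Slc7a1 and above them for Slc7a8 and Slc43a2, while Slc7a7 overlaps and Slc43a1 is at or near 0.

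The heavy chain gene Slc3a2 (chromosome 19, 8706882 to 8723369, minus strand, GRCm38, as for all genes below) had 49.5, 41.0 and 47.0 CPM in OFF libraries, against 117, 151 and 112 CPM in ON libraries. The highest OFF library was below the lowest ON library, and the ON libraries spread more widely. Its mean was 45.8 ± 4.39 CPM in OFF and 127 ± 21.2 CPM in ON (SD, n = 3 each), a log2 fold change of -1.47 (SE 0.13, adjusted p = 2.44e-06, from the quasi-likelihood F test of edgeR). With 368 to 446 counts in OFF and 906 to 1328 counts in ON, it was the most deeply counted member. Slc3a2 held rank 327 from the lowest fold change among all tested rows.

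The LAT1 light chain gene Slc7a5 (chromosome 8, 121881150 to 121907694, minus strand, 10 exons) had 5.22, 4.90 and 3.74 CPM in OFF, against 25.9, 36.2 and 38.8 CPM in ON. All OFF libraries were low and close together, and ON replicate 1 was the lowest of the ON libraries but still far above them. The means were 4.62 ± 0.78 CPM in OFF and 33.7 ± 6.82 CPM in ON (SD, n = 3 each), and the fitted level was 7.26-fold lower in OFF (log2 fold change -2.86, SE 0.19, 95% interval -3.27 to -2.46, adjusted p = 4.83e-07). Its fold change was the lowest of the members and held rank 30 from the lowest among all tested rows. OFF libraries held 34 to 47 counts of Slc7a5 and ON libraries 227 to 318. A gene model on the other strand, Gm20388, spans the Slc7a5 locus without sharing exon bases, and its row was not called (log2 fold change 0.17, adjusted p = 0.437).

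The y+LAT2 gene Slc7a6 (chromosome 8, 106168857 to 106198706, plus strand) had 3.67, 3.34 and 2.42 CPM in OFF, against 7.42, 7.18 and 6.82 CPM in ON. The groups did not overlap, and the ON libraries lay within 1 CPM of each other. The log2 fold change was -1.18 (SE 0.23, 95% interval -1.67 to -0.70, adjusted p = 0.00107), from 22 to 33 counts in OFF and 55 to 65 counts in ON. The convergent neighbour Slc7a6os, whose 3' end lies 2011 bases away on the other strand with no shared exon bases, averaged 10.9 ± 2.44 CPM in OFF and 16.4 ± 1.55 CPM in ON (SD, n = 3 each). It was also called lower (-0.58, adjusted p = 0.0173), but leaving out ON replicate 1 or 3 ended the call (highest adjusted p = 0.0722).

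The y+LAT1 gene Slc7a7 (chromosome 14, 54369442 to 54417780, minus strand) had 4.55, 4.23 and 5.50 CPM in OFF, against 4.57, 6.83 and 4.34 CPM in ON. The groups overlapped, with ON replicate 2 the highest of all 6. The log2 fold change was -0.14 (SE 0.24, adjusted p = 0.688) and its 95% interval ran from -0.66 to 0.37. Without ON replicate 2 the sign turned (0.10, adjusted p = 0.824). Exons of Slc7a7 share 232 bases with Oxa1l, a mitochondrial insertase gene on the opposite strand whose 3' end is 231 bases away. Oxa1l had 28.1 ± 2.26 CPM in OFF and 25.3 ± 1.37 CPM in ON (SD, n = 3 each), above Slc7a7 in every library. The sources used here do not give the strand setting of the counting, so reads of Oxa1l within the Slc7a7 row cannot be told apart from its own.

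The LAT2 gene Slc7a8 (chromosome 14, 54722209 to 54781946, minus strand, 11 exons) had 9.11, 11.5 and 17.6 CPM in OFF, against 7.31, 4.67 and 5.58 CPM in ON. All OFF libraries were above all ON libraries, with OFF replicate 3 the highest and OFF replicate 1 close to ON replicate 1. The means were 12.7 ± 4.38 CPM in OFF and 5.85 ± 1.34 CPM in ON (SD, n = 3 each), a log2 fold change of 1.12 (SE 0.25, 95% interval 0.58 to 1.65, adjusted p = 0.00352). In the same OFF replicates 1 to 3 the summed neutrophil markers were 16007, 20596 and 25169.5 CPM and the summed macrophage markers 59.5, 65.2 and 85.7 CPM. Erythroid markers were 578, 934 and 826 CPM. Their part in the change of Slc7a8 was not tested. Without OFF replicate 3, which is high for Slc7a8 and for neutrophil markers, the log2 fold change was 0.82 and the call remained (adjusted p = 0.00371).

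**Figure D2:**
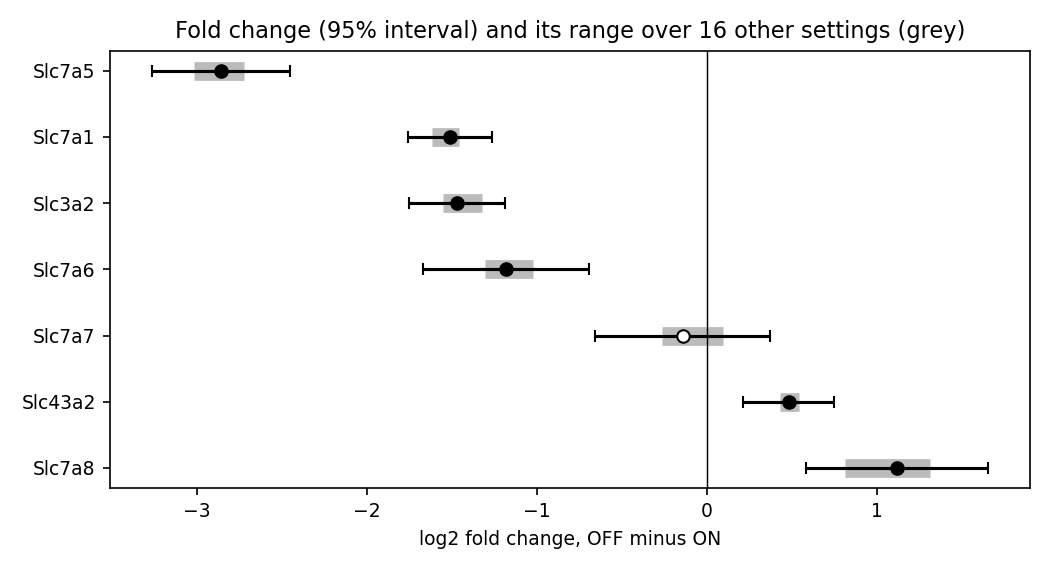
Log2 fold change of the 7 tested members, OFF minus ON (horizontal axis), with 95% intervals (bars) and the range over 16 other processing settings (grey). Slc7a5 is lowest at -2.86 and Slc7a8 highest at 1.12; filled points passed an adjusted p of 0.05 and the open point, Slc7a7, did not.

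With a falling LAT1 and a rising LAT2 mRNA, the makeup of the 4 light chains among the members differed between the groups. Slc7a11, a further measured partner of Slc3a2 described below, is not a member and was left out of the shares, sums and ratios. Slc7a5 held 23.2%, 20.5% and 12.8% of the summed counts of Slc7a5, Slc7a6, Slc7a7 and Slc7a8 in OFF, against 57.3%, 66.0% and 69.9% in ON. The widest reach of the 95% Wilson intervals was 9.29% to 29.4% in OFF and 52.4% to 73.9% in ON. Slc7a8 held 40.4%, 47.9% and 60.2% in OFF, against 16.2%, 8.51% and 10.04% in ON. Slc7a8 was thus the largest of the 4 shares in each OFF library and Slc7a5 in each ON library. These shares rest on 203 to 266 light-chain counts in OFF and 396 to 482 in ON, and differences in 3' priming between the genes enter them. The share of Slc7a7 averaged 18.9% ± 1.26 in OFF and 10.1% ± 2.32 in ON, with Slc7a7 counts themselves overlapping, and that of Slc7a6 12.8% ± 4.11 in OFF and 13.9% ± 2.20 in ON (SD, n = 3 each). These 4 light chains together, without Slc7a11, summed to 22.5, 23.9 and 29.3 CPM in OFF, against 45.2, 54.9 and 55.6 CPM in ON.

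**Figure D3:**
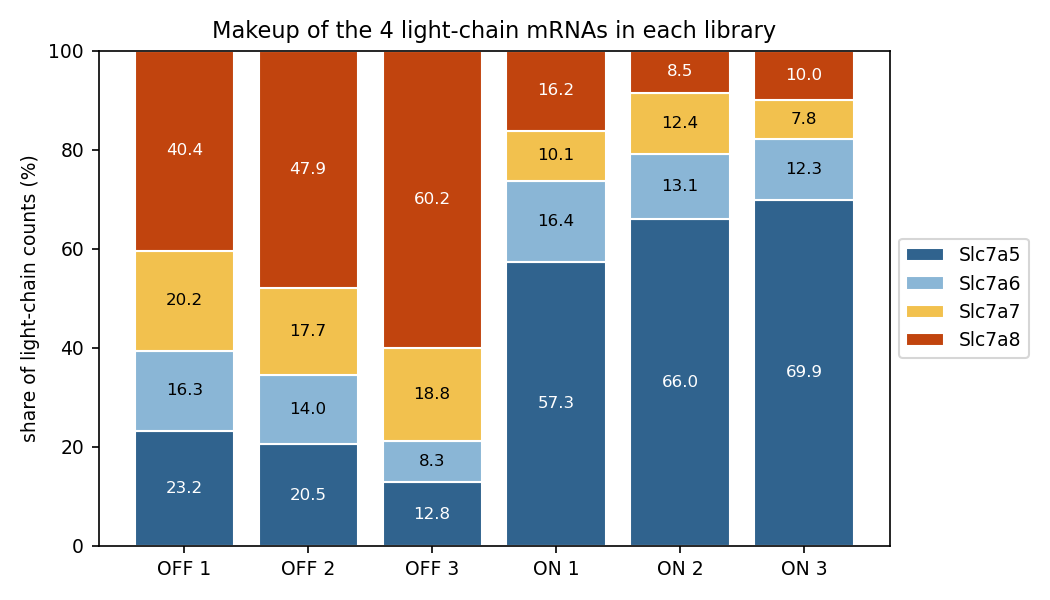
Share (%) of the summed counts of 4 light-chain genes held by each gene in the 3 OFF and 3 ON libraries, 1 bar per library. The Slc7a5 share lies between 12.8% and 23.2% in OFF and between 57.3% and 69.9% in ON, and the Slc7a8 share between 40.4% and 60.2% in OFF and between 8.51% and 16.2% in ON.

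The same 4 light chains were also set against the heavy chain within each library, a ratio that no library scaling affects. The log2 ratio of Slc7a5 to Slc3a2 counts was -3.23, -3.05 and -3.63 in OFF, against -2.17, -2.06 and -1.53 in ON. Slc7a5 therefore fell by more than its heavy chain, by 1.38 on the log2 scale, with no overlap between groups. For Slc7a8 the ratio was -2.44, -1.83 and -1.41 in OFF, against -3.99, -5.00 and -4.32 in ON, a difference of 2.54. For Slc7a7 it averaged -3.26 ± 0.17 in OFF and -4.60 ± 0.12 in ON (SD, n = 3 each), a difference of 1.34 without overlap. For Slc7a6 it averaged -3.86 ± 0.34 in OFF and -4.13 ± 0.23 in ON (SD, n = 3 each), and the groups overlapped. An exact two-sided permutation test gave p = 0.1 for Slc7a5, Slc7a7 and Slc7a8, the smallest that 3 against 3 libraries allow, and p = 0.3 for Slc7a6 (0.133 and 0.3 adjusted over the 4 ratios). These ratios did not pass 0.05, which this design cannot reach.

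The cationic carrier Slc7a1 (chromosome 5, 148327410 to 148399904, minus strand) had 41.8, 34.2 and 34.1 CPM in OFF, against 99.7, 106 and 108 CPM in ON. Both groups were tight and well apart. The means were 36.7 ± 4.39 CPM in OFF and 105 ± 4.39 CPM in ON (SD, n = 3 each), 2.85-fold lower in OFF (log2 fold change -1.51, SE 0.12, adjusted p = 7.77e-07). The related carrier CAT2 (Slc7a2) had 0.56, 0.56 and 0.77 CPM in OFF, against 1.83, 1.14 and 2.23 CPM in ON, and was called lower from 61 counts in all (-1.44, SE 0.42, adjusted p = 0.0163). That call ended by DESeq2 and without OFF replicate 2, ON replicate 1 or ON replicate 3 (highest adjusted p = 0.0912). Of 15 genes that use arginine or its products, 12 were tested, with a median log2 fold change of -0.15. Of these, 5 were called lower and 1 higher, against 17.5% lower and 17.3% higher over all tested rows. The ornithine decarboxylase Odc1 changed by -1.54, the spermidine synthase Srm by -2.09 and the arginine methyltransferase Prmt5 by -1.07. Gatm, which starts creatine synthesis, was higher at 0.59 (adjusted p = 0.0343), a call that ended in 7 of 16 other settings, among them leaving out any 1 library but OFF replicate 1. Leaving out each library gave 5 lower calls every time and 0 to 2 higher calls.

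Of the SLC43 carriers, Slc43a2 (LAT4, chromosome 11, 75531694 to 75577575, plus strand) had 27.5, 24.9 and 29.0 CPM in OFF, against 18.2, 20.6 and 19.6 CPM in ON. The groups were apart by less than the fold seen for the other called members. The means were 27.2 ± 2.07 CPM in OFF and 19.5 ± 1.23 CPM in ON (SD, n = 3 each), 1.40-fold higher in OFF (log2 fold change 0.48, SE 0.13, adjusted p = 0.00812). The call was lost without ON replicate 1 (0.43, adjusted p = 0.0528), which left 1 member called higher. An antisense gene model, Gm45606, shares 922 exon bases with Slc43a2. The 3' ends of the genes lie 47298 bases apart, but where the shared bases lie was not looked up. Gm45606 had 3.66 ± 1.14 CPM in OFF and 3.28 ± 0.12 CPM in ON (SD, n = 3 each, adjusted p = 0.706). The erythroid marker sum given above was higher in OFF too. The neutrophil sum overlapped between the groups, although 7 of its 10 genes were called higher in OFF. S100a8 and S100a9, with the largest mean CPM in that list, were not called (9458 and 5427 CPM in OFF, 11580 and 6543 CPM in ON). The part of the erythroid and neutrophil markers in the change of Slc43a2 was not tested. Slc43a1 (LAT3, chromosome 2, 84838850 to 84863594, plus strand) had 1 count, in OFF replicate 3, and none in the other 5 libraries, so it was not tested and a difference was not detectable at this depth.

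Beyond the members, 12 further genes of the 3 families were looked up, and 3 passed the filter. The cystine and glutamate exchanger xCT (Slc7a11, chromosome 3, 49892526 to 50443614, minus strand), also a partner of Slc3a2, had 2.11, 3.79 and 1.43 CPM in OFF, against 8.68, 14.7 and 17.2 CPM in ON. Every OFF library was below every ON library, and the log2 fold change of -2.46 (SE 0.33, adjusted p = 1.54e-04) lay between those of Slc7a5 and Slc7a1. Slc43a3, which carries purine bases, had 55.4 ± 5.14 CPM in OFF and 51.2 ± 3.65 CPM in ON (SD, n = 3 each, log2 fold change 0.11, adjusted p = 0.472). With Slc7a2, 2 of the 3 were called lower, against 17.5% of all tested rows. Only 1 was called lower without OFF replicate 2, ON replicate 1 or ON replicate 3. The same held by DESeq2, in the authors' log2 table, and without the ribosomal RNA and mitochondrial rows. Slc7a4, Slc7a10, Slc7a12, Slc7a13 and Slc7a15 had no counts. Slc7a9 had 1 count in all, Slc7a3 and Slc7a14 had 8 each and Slc3a1, the other heavy chain of the family, had 17, and none of these 4 was tested.

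Among 25 other amino acid transporters, 13 were tested, with a median log2 fold change of -0.24. Of these, 4 were called lower and 2 higher, against 17.5% lower and 17.3% higher over all tested rows. The glutamine carrier Slc1a5, whose substrate LAT1 can exchange for leucine, had 37.8 ± 1.6 CPM in OFF and 72.3 ± 3.33 CPM in ON (SD, n = 3 each, log2 fold change -0.94, adjusted p = 1.59e-05). The serine and alanine carrier Slc1a4 averaged 0.44 CPM in OFF and 5.03 CPM in ON (log2 fold change -3.46). The glycine carrier Slc6a9 averaged 0.70 CPM in OFF and 5.06 CPM in ON (-2.83). The lysosomal arginine sensor Slc38a9 rose by 0.71 (adjusted p = 0.00505). The lysosomal carrier Slc36a1 was higher at 0.52 (adjusted p = 0.0290). Leaving out OFF replicate 2 or 3 or ON replicate 1 or 3 ended that call and left 1 higher call in the list.

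Of 14 genes for partners and traffic of CD98, 12 were tested, with 4 called lower, 3 higher and a median log2 fold change of -0.05. The shares over all tested rows were 17.5% lower and 17.3% higher. The lactate carriers MCT1 (Slc16a1) and MCT4 (Slc16a3), which share the basigin complex with CD98, were both lower. Slc16a1 had 7.84 ± 4.76 CPM in OFF and 43.2 ± 2.85 CPM in ON, and Slc16a3 43.8 ± 5.23 CPM in OFF and 84.0 ± 2.66 CPM in ON (SD, n = 3 each). Their log2 fold changes were -2.46 and -0.94 (adjusted p = 6.28e-04 and 2.92e-05), whereas basigin itself (Bsg) gave -0.11 (adjusted p = 0.587). Galectin-3 (Lgals3), a lectin that binds CD98, was lower at -0.61 (adjusted p = 0.00620), but not called once ON replicate 2 was left out (0.0539). The ubiquitin ligase Nedd4l rose by 0.68 and the integrin Itga4 by 0.80. The integrin Itgb2 was higher at 0.37 (adjusted p = 0.0298), a call that ended with a replicate block and without OFF replicate 2 or any 1 of the ON libraries (highest adjusted p = 0.136), and Itgb1 gave 0.01 (adjusted p = 0.939). The higher calls in the list ranged from 2 to 5, with 5 without OFF replicate 1.

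**Figure D4:**
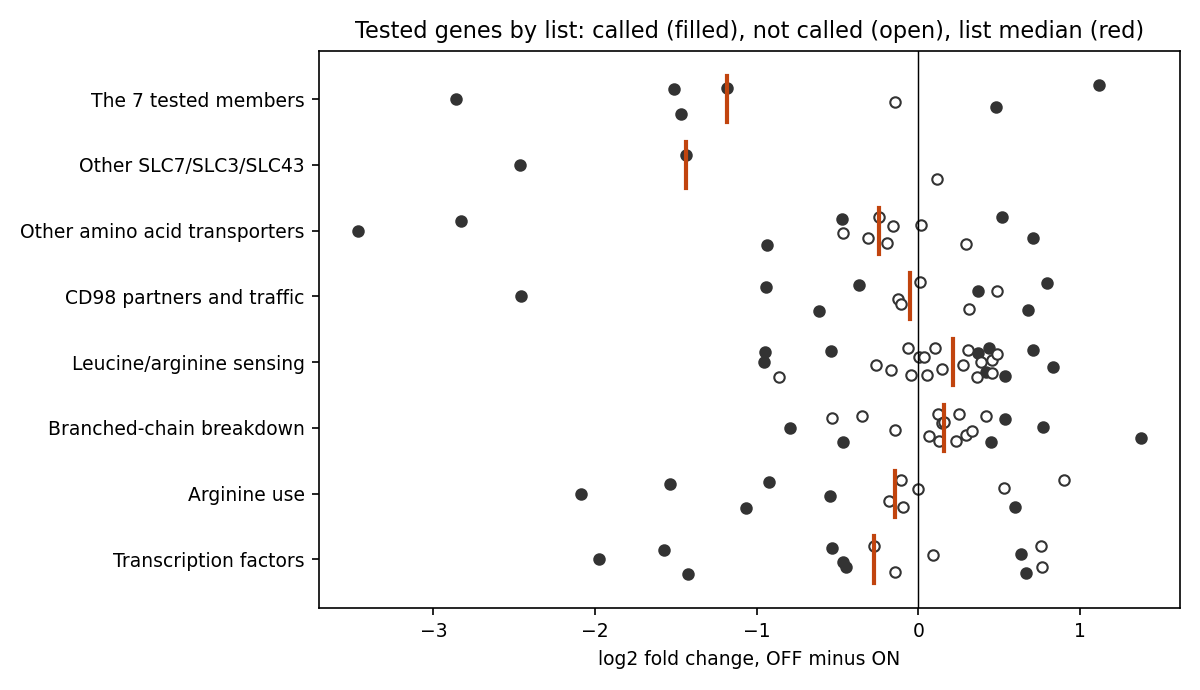
Log2 fold change, OFF minus ON, of each tested gene (points) in the 7 tested members and in 7 lists of related genes, with list medians in red and filled points for an adjusted p under 0.05. The median is -1.18 for the members, -0.24 for other amino acid transporters and -0.05 for partners of CD98.

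Transcription factors tied to these carrier genes in other work were read in the same libraries. Of 15 such genes, 13 were tested, of which 6 were called lower and 2 higher. Over all tested rows 17.5% were called lower and 17.3% higher. Without OFF replicate 2 or ON replicate 2 the number lower was 4. Atf4, the factor of the amino acid response, had 127 ± 14 CPM in OFF and 340 ± 30.0 CPM in ON (SD, n = 3 each, log2 fold change -1.43, adjusted p = 1.04e-06). Its relative Atf5 changed by -1.98, and Myc had 7.46 ± 0.69 CPM in OFF and 22.3 ± 3.26 CPM in ON (SD, n = 3 each, log2 fold change -1.58, adjusted p = 6.05e-06). Tfe3, a lysosomal biogenesis factor, rose by 0.63, and its relative Mitf was higher at 0.67 (adjusted p = 0.0239), a call that ended by DESeq2 and without OFF replicate 2, ON replicate 1 or ON replicate 3, each of which left 1 higher call. In the promoter table, 7 of the 8 members had windows (14 in all, each with 250 bases before and 50 after a start site), and Slc7a5 had none. Among the members' windows, the ATF4 core TGATGNAA stood in those of Slc7a7 alone, against 3.97% of all 32851 windows. CACGTG stood in the window of Slc43a1 alone (7.15% of all windows), TTCNNNGAA in the second window of Slc7a1 alone (8.3%), and GTAAACA in none (3.65%). No window of Slc3a2, Slc7a6, Slc7a8 or Slc43a2 held any of the 4 motifs, which says nothing of sites elsewhere.

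To place the members among the transcriptome, profiles were compared with 8060 other rows of at least 10 CPM by the root mean square difference of log2 CPM, each centred on its own ON mean, over the 6 libraries. Nearest to Slc7a5 were Stc2, a secreted glycoprotein (0.14, log2 fold change -2.78), the noncoding RNA Dancr (0.31), the ERK pathway inhibitor Spred1 (0.35), Arl5c (0.39) and the cyclin Ccnd2 (0.41). Nearest to Slc3a2 were the cell cycle inhibitor Cdkn1a (0.08, log2 fold change -1.47), the nucleolar protein gene Nop16 (0.10), the folate enzyme Fpgs (0.12), the mTORC1 inhibitor Ddit4 (0.14) and C1qbp (0.14). Nearest to Slc7a8 were the lysosomal myeloid protein Cd68 (0.12, log2 fold change 1.22), the adaptor Dok3 (0.14), Ethe1 (0.14), the neutrophil protease Mmp9 (0.14) and Ndst1 (0.15). These distances are descriptions and carry no test.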

How the data were processed

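DNase-treated RNA from TriZol lysates went into QuantSeq 3' mRNA libraries, per the labels' protocols. The submitters' processing notes name limma 3.42.2, R 3.6.1, featureCounts, Subread 1.6.3, HISAT2 2.0.4, FastQC 0.11.6, cutadapt 1.9.1, bcl2fastq 2.17.1.14 and build mm10. The sources used here do not give the annotation, the strand setting or how multiply mapped reads were counted. Raw counts deposited by the authors are whole numbers for 54838 rows; 1105 rows without a name (0.145% to 0.172% of counts) were left out. The authors' deposited log2 table (12287 rows, near-equal column medians) served as an alternative.

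Counts were tested in R 4.3.3 with edgeR 4.0.16: filterByExpr (minimum count 10, minimum total 15), TMM, robust dispersions, glmQLFit and glmQLFTest on 3 OFF and 3 ON libraries with no covariate, fold changes as OFF minus ON, and Benjamini-Hochberg adjustment over 13652 rows. The fit was tested on simulated data. SE is the fold change over the square root of F. limma 3.58.1 and DESeq2 1.42.0 gave alternatives. Within groups, libraries differed beyond counting noise (chi-square per degree of freedom 2.95 to 39.5). Ratios to Slc3a2 used 0.5 added counts and exact permutation. Coordinates come from GENCODE M21 (GRCm38) and promoters from RefSeq (GRCm38.p6). Members and lists were chosen with earlier results of these data known. Beside the members and the Flt3 row, the text names every gene of a related-gene list of at most 12 genes. From longer lists it names the 3 with the smallest p among those called in each direction. It also names tested rows whose gene bodies or 3' ends (within 5000 bases) meet a member, and the 5 nearest profiles. Bsg, Itgb1, Bcat1, Bckdhb, Dbt and the leukaemia markers were added after their values were seen. Other cell type marker lists were not named in full, and their single genes were also named with values known.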

Additional observations from a re-analysis of the deposited data

How the results depend on the processing

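Over 16 other settings, Slc7a5, Slc3a2, Slc7a1, Slc7a6 and Slc7a8 kept their direction and their call. Their log2 fold changes ranged over -3.02 to -2.72, -1.55 to -1.32, -1.62 to -1.46, -1.31 to -1.02 and 0.82 to 1.31. Slc43a2 ranged from 0.43 to 0.54 and lost its call without ON replicate 1, and Slc7a7, never called, ranged from -0.26 to 0.10 as each library was left out, turning sign without ON replicate 2; the cause was not tested. Leaving out each library gave 4 members lower throughout and 1 to 2 higher. For the lists the ranges were 1 to 2 lower for the other family genes. Other amino acid transporters had 4 to 6 lower and 1 to 2 higher, and CD98 partners 3 to 4 lower and 2 to 5 higher. Amino acid sensing had 2 to 5 lower and 3 to 7 higher, and branched-chain breakdown 0 to 3 lower and 2 to 4 higher. Arginine use had 5 lower throughout and 0 to 2 higher, and transcription factors 4 to 6 lower and 1 to 2 higher. DESeq2 gave 1 lower in the family list, 1 lower in branched-chain breakdown and 1 higher transcription factor. With no filter on low counts there were 4 lower in branched-chain breakdown and 3 higher in arginine use. limma voom and the authors' log2 table gave 0 higher in arginine use, and the authors' log2 table, as well as leaving out ribosomal RNA and mitochondrial rows, gave 1 lower in the family list. Same-numbered OFF and ON libraries did not deviate together (r of 0.03, -0.08 and -0.05). With 3 libraries per group this cannot tell whether the numbers pair them, and the labels do not say. A replicate block called 4403 rows in place of 4746 and the same counts of members, 4 lower and 2 higher. The 4 light-chain ratios kept their direction with 2 added counts. Without each library only the Slc7a6 ratio could have turned, since the other ratios did not overlap between groups. Its difference then ranged from 0.14 to 0.46. As each library was left out, the mean Slc7a5 share ranged from 16.6% to 21.8% in OFF and from 61.6% to 67.9% in ON. The mean Slc7a8 share ranged from 44.2% to 54.0% in OFF and from 9.28% to 13.1% in ON. Low counts limit Slc7a6, Slc7a7 and the light-chain shares in OFF.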

Other observations

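Of 32 listed genes for sensing of leucine and arginine and for its relay to mTORC1, 26 were tested. Of these, 3 were called lower and 6 higher, a share near the 34.8% called over all tested rows, with a median log2 fold change of 0.21. The list pools sensors with other parts of the pathway, so its median is no measure of sensing. Lars, the leucyl-tRNA synthetase, changed by -0.95 (adjusted p = 6.37e-05) and the leucine sensor Sesn2 by -0.96 (adjusted p = 0.00190). Seh1l was lower at -0.54, a call lost without ON replicate 2 or 3 (highest adjusted p = 0.0555). Fnip1, a partner of folliculin, had 70.6 ± 7.34 CPM in OFF and 39.5 ± 4.87 CPM in ON (SD, n = 3 each, log2 fold change 0.84, adjusted p = 1.42e-04). Lamtor1, a lysosomal anchor of the Rag GTPases, was higher at 0.42, a call lost without ON replicate 1 or 3 (highest adjusted p = 0.118). The number called higher was 3 without OFF replicate 2 or any 1 of the ON libraries, and the number called lower was 5 without OFF replicate 3.

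Of 20 listed enzymes that break down the branched-chain amino acids carried by LAT1 and LAT4, 19 were tested. Of these, 2 were called lower and 4 higher, again near the share over all tested rows, with a median log2 fold change of 0.16. Bckdha, a subunit of the branched-chain ketoacid dehydrogenase, had 26.6 ± 3.35 CPM in OFF and 10.2 ± 0.99 CPM in ON (SD, n = 3 each), a rise of 1.37 on the log2 scale (adjusted p = 1.06e-05). Dld, a subunit that this complex shares with other dehydrogenases, had 31.6 ± 3.07 CPM in OFF and 43.8 ± 4.54 CPM in ON (SD, n = 3 each, log2 fold change -0.47, adjusted p = 0.00848), but was not called once ON replicate 3 was left out (0.0544). The remaining subunits Bckdhb and Dbt gave -0.35 and -0.54 (adjusted p = 0.324 and 0.0501). Ivd, which acts next on leucine, rose by 0.77. Acadsb, which acts at the matching step for isoleucine, was higher at 0.45 (adjusted p = 0.0146), but leaving out any 1 of OFF replicate 2, ON replicate 2 and ON replicate 3 ended the call (highest adjusted p = 0.0839). The transaminase Bcat2 was lower at -0.80 (adjusted p = 0.0355), a call lost in 5 of 16 other settings, and Bcat1 was not tested. Without OFF replicate 2, ON replicate 2 or ON replicate 3 the number higher was 2, and without OFF replicate 3 or ON replicate 2 the number lower was 1, with none lower without ON replicate 3.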
